A study of Mus musculus with 26 samples.

Results

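Glycogen is the branched store of glucose, and its turnover rests on a small set of enzymes. The 9 genes described here are 4 genes of synthesis (Gys1, Gys2, Gbe1 and Ugp2), 3 glycogen phosphorylases of breakdown (Pygl, Pygb and Pygm) and 2 subunits that bring protein phosphatase 1 to glycogen (Ppp1r3b and Ppp1r3c). The rule that picked them uses gene names, not values, though it was set with earlier results of these data known. They make up 9 of the 25407 gene names tested. The array had 14 probes for them, of which 13 passed the filter on dim probes, and these 13 were well above background on all 26 arrays. The probe left out, Pygm probe A_66_P126033, was well above background on 0 arrays.

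Expression was measured in subcutaneous inguinal white adipose tissue of single male C57BL6/J mice that had been fasted for 24 h and refed for 18 h with food and with water holding 20% glucose. Total ChREBP-KO mice (n = 7) were null for Mlxipl and lacked both isoforms of the glucose-responsive transcription factor ChREBP. ChREBPβ-deficient mice (n = 5) lacked only the β isoform. The exon from which it starts was removed, with flanking sequence, by CRISPR/Cas9 with 2 guides placed upstream and downstream of it. Both deletions were present in all tissues, not in fat alone. WT mice were used for each line separately (n = 7 and n = 7), and the methods name littermates for the ChREBPβ line only. The ages of the mice were not given in the sources used here.

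In the synthesis of glycogen, UDP-glucose pyrophosphorylase (Ugp2) makes the activated sugar, glycogen synthase (Gys1 or Gys2) adds it to the chain, and the branching enzyme (Gbe1) moves stretches of the chain to form branches. Phosphorylase releases glucose 1-phosphate from the chain ends, and its liver (Pygl), brain (Pygb) and muscle (Pygm) forms are separate genes. Protein phosphatase 1, held at the particle by subunits such as Ppp1r3b and Ppp1r3c, switches synthase on and phosphorylase off. Fat holds little glycogen, and the store in it is known to rise and fall with fasting and refeeding.

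All levels below are log2 of the median spot intensity after quantile normalization, and a difference is a difference of group means on that scale. A gene with several probes is represented by its brightest one. Levels of different probes are not comparable with each other. Adjusted p-values are from limma with Benjamini-Hochberg adjustment over 38832 probes, and a gene was called at an adjusted p under 0.05. The replicates were single mice, as the methods of the study state.

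The arrays were checked first. The brightest Mlxipl probe, A_55_P2119957, was lower in total ChREBP-KO fat by 2.29 on the log2 scale and lower in ChREBPβ-deficient fat by 1.52, with no overlap between KO and WT arrays in either line. Probe A_55_P2728555 of Mlxipl differed by -0.90 (adjusted p = 2.2e-06) and -0.68 (0.054), also without overlap, and probe A_55_P2045158 by -0.13 (0.16) and 0.04 (0.97), with overlap. Which parts of Mlxipl these probes read relative to the deletions was not examined. No spot was saturated on any array. All 10 adipocyte markers were tested, and their mean log2 intensity was between 15.4 and 16.3 on every array. Marker RNA of other cell types was present in unequal amounts, read as the mean log2 intensity of a marker list on an array, here called its score. For lymphocytes this score averaged 12.1 ± 0.62 (SD, n = 7) for WT mice of the total line, 9.73 ± 1.55 (n = 7) in total ChREBP-KO fat, 7.61 ± 0.34 (n = 7) in WT fat of the ChREBPβ line and 7.78 ± 0.65 (n = 5) in ChREBPβ-deficient fat. In total ChREBP-KO fat 16 of 16 lymphocyte markers and 4 of 6 brown adipocyte markers were lower, and 9 of 10 adipocyte markers and 5 of 23 skeletal muscle markers were higher. Of the macrophage markers 1 of 5 was lower, as was 1 of 5 hepatocyte markers, and 0 of 4 epithelial markers were called. Of all gene names 25.8% were called higher and 20.1% lower in this comparison. The muscle, macrophage and hepatocyte counts were not above these shares. In ChREBPβ-deficient fat 0 markers of any of these lists were called. In tissue RNA, fewer cells of a type and less RNA per cell cannot be told apart.

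In total ChREBP-KO fat the genes of the pathway moved in both directions. Pygl, Gbe1, Ugp2 and Ppp1r3b were lower, Pygb, Ppp1r3c and Gys1 were higher, and Gys2 and Pygm did not pass the test. Thus 4 of 9 genes fell, against a background of 20.1% of all gene names called lower, and 3 of 9 rose, against 25.8% called higher. For 5 of the 9 genes the KO and WT arrays did not overlap, which held for 14.8% of all gene names. The median difference of the 9 genes was -0.32, and that of all gene names was 0.05.

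**Figure D1:**
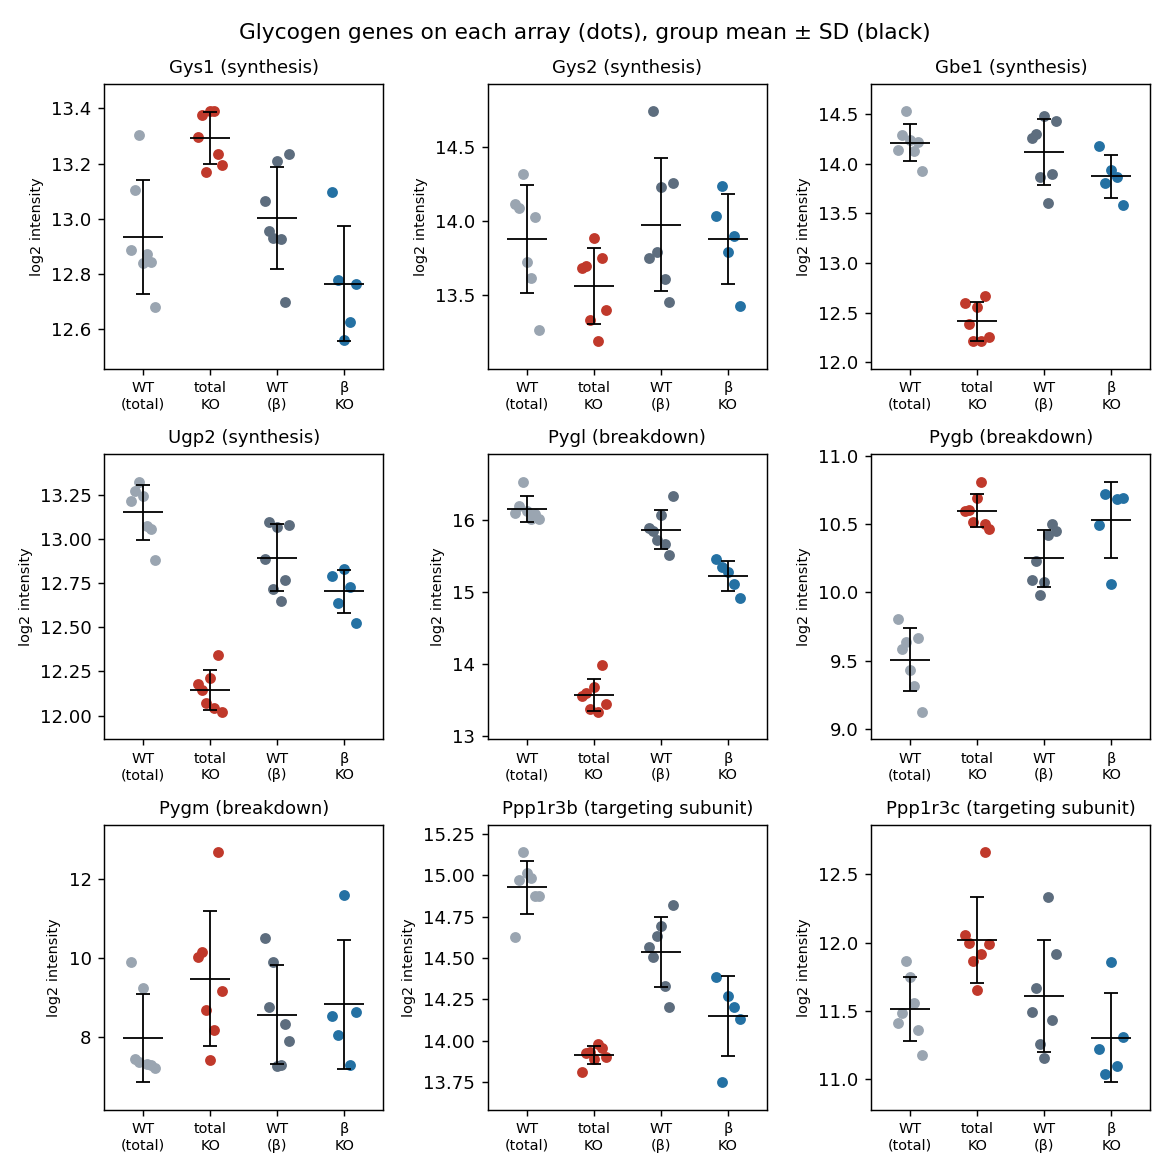
Log2 intensity of the 9 glycogen genes (vertical axes, 1 panel per gene, axes not starting at 0) in the 4 groups (horizontal axis), with each dot 1 array and the black bar and whiskers the group mean ± SD. Total ChREBP-KO arrays (red) lie apart from their WT arrays for Gbe1, Ugp2, Pygl, Pygb and Ppp1r3b, and the Pygm arrays spread widely in each group.

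Of the synthesis genes, Gbe1 changed most. At its brightest probe (A_51_P273684, chr16:70569840-70569899 in mm9) it lay between 13.9 and 14.5 with a median of 14.2 in WT fat of the total line, and between 12.2 and 12.7 with a median of 12.4 in total ChREBP-KO fat. The lowest WT array was thus more than 1 log2 unit above the highest KO array. The difference was -1.80 ± 0.12 (SE), which left 28.8% of the WT intensity (95% confidence interval 24.1 to 34.3%, adjusted p = 2.6e-11). The other two Gbe1 probes also fell, by 1.76 at A_65_P10159 (adjusted p = 3.8e-09) and by 1.32 at A_55_P2727654 (adjusted p = 3.0e-07). The last of these reads a different transcript model, at chr16:70361835-70361894, far upstream of both others.

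Ugp2 (probe A_55_P2021049, chr11:21221975-21222034) ranged from 12.9 to 13.3 with a median of 13.2 in WT and from 12.02 to 12.34 with a median of 12.14 in total ChREBP-KO fat. The ranges did not meet, and the KO mean was 49.7% of the WT mean (44.2 to 55.8%, adjusted p = 4.5e-10).

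The synthase genes themselves behaved otherwise. Gys1, the synthase of muscle and most other tissues (probe A_55_P1982883, chr7:52711790-52711849), ranged from 12.7 to 13.3 with a median of 12.9 in WT and from 13.2 to 13.4 with a median of 13.3 in total ChREBP-KO fat. The groups overlapped, and the rise of 0.36 ± 0.094 (SE) passed the test (adjusted p = 0.0028). It did not pass with a covariate for the lymphocyte score (0.32, adjusted p = 0.11), with both marker scores (0.37, adjusted p = 0.077) or with slide as a fixed block (0.32, adjusted p = 0.13). Gys2, the liver synthase (probe A_55_P1992555, chr6:142371157-142371216), was not called, with a difference of -0.32 ± 0.18 (SE, adjusted p = 0.16) and a 95% confidence interval of -0.69 to 0.05.

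Among the phosphorylases, Pygl and Pygb moved in opposite directions. Pygl (probe A_51_P452779, chr12:71291855-71291914) showed the largest difference of the 9 genes. Its WT arrays ranged from 16.0 to 16.5 with a median of 16.1, and its total ChREBP-KO arrays from 13.34 to 13.99 with a median of 13.55. No KO array came within 2 log2 units of a WT array. The difference of -2.58 ± 0.12 (SE) left 16.8% of the WT intensity (14.2 to 19.8%, adjusted p = 1.7e-14).

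Pygb (probe A_52_P350664, chr2:150656541-150656600) ranged from 9.13 to 9.80 with a median of 9.58 in WT and from 10.5 to 10.8 with a median of 10.6 in total ChREBP-KO fat. Every KO array was above every WT array, and the mean intensity was 2.13 times that of WT (adjusted p = 1.9e-08). The other Pygb probe, A_51_P485810, rose by 1.07 (adjusted p = 8.9e-08), close to the 1.09 of the first. Because the phosphorylases are related proteins, the probes of Pygm and Pygb that span a junction between exons are shown, with the longest run of bases that both hold in capitals. In mm9 they cover chr19:6397893-6398064 (Pygm A_51_P458973) and chr2:150655410-150656136 (Pygb A_51_P485810), both on the plus strand:
Pygm: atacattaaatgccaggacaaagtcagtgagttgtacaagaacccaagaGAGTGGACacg
Pygb: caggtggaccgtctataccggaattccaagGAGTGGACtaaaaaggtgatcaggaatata
The shared run is 8 of 60 bases long. The probes were compared only with each other, not with the transcripts of the other phosphorylase genes. Whether a probe also reads another phosphorylase was therefore not tested.

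Pygm, the muscle phosphorylase, was not called at either tested probe. At A_55_P1961913 (chr19:6398389-6398448) it ranged from 7.21 to 9.90 with a median of 7.37 in WT fat of the total line, and from 7.43 to 12.7 with a median of 9.18 in total ChREBP-KO fat. Its spread within groups, between 1.11 and 1.71 (SD), was the widest of the 9 genes. The difference of 1.51 ± 0.72 (SE) had an adjusted p of 0.089 and a 95% confidence interval of 0.03 to 2.98, and at A_51_P458973 it was 1.80 (adjusted p = 0.054). Leaving out WT replicate 1 of the total line, or total ChREBP-KO replicate 4, brought Pygm to an adjusted p of 0.043 or 0.042, within a range of 0.042 to 0.24 over all arrays left out one at a time.

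**Figure D2:**
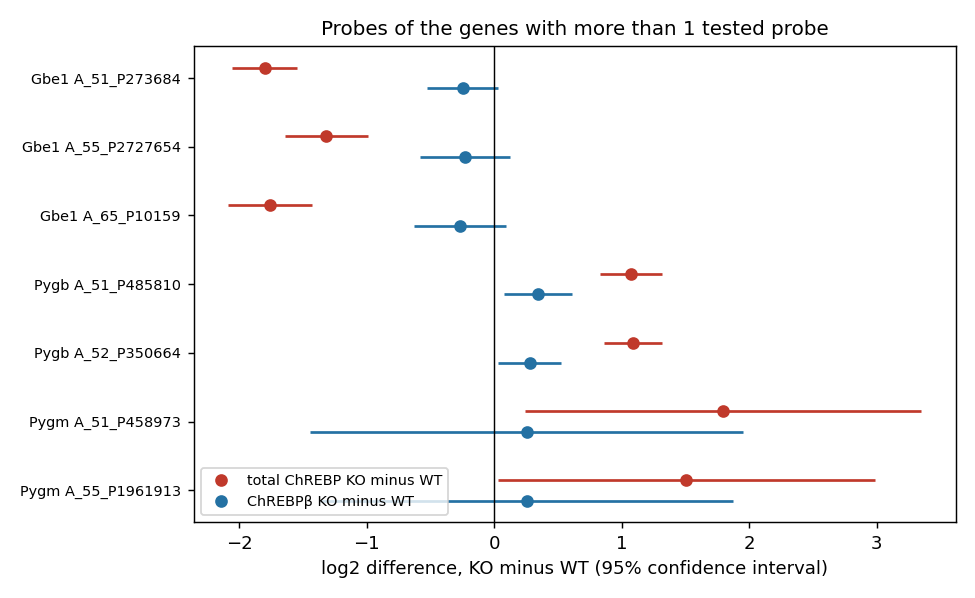
Log2 difference of KO minus WT (horizontal axis) with 95% confidence intervals for each tested probe of Gbe1, Pygb and Pygm (rows), total ChREBP KO in red and ChREBPβ KO in blue. The probes of a gene give similar differences: -1.80, -1.32 and -1.76 for Gbe1, 1.07 and 1.09 for Pygb, and 1.80 and 1.51 for Pygm, in total ChREBP KO.

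Both targeting subunits changed, in opposite directions. Ppp1r3b (probe A_55_P1967133, chr8:36451115-36451174), the subunit best known from liver, ranged from 14.63 to 15.14 with a median of 14.97 in WT and from 13.81 to 13.98 with a median of 13.93 in total ChREBP-KO fat. The groups were apart, and the KO mean was 49.5% of the WT mean (43.4 to 56.6%, adjusted p = 4.4e-09). Ppp1r3c (probe A_52_P30451, chr19:36806457-36806516), also called protein targeting to glycogen, ranged from 11.2 to 11.9 with a median of 11.5 in WT and from 11.65 to 12.66 with a median of 11.99 in KO. These ranges overlapped, and the rise was 0.50 ± 0.17 (SE, adjusted p = 0.016). The Ppp1r3c rise did not pass with the muscle score as a covariate (0.38, adjusted p = 0.083), with the lymphocyte score (0.32, adjusted p = 0.40) or with both (0.22, adjusted p = 0.59). The array with the highest Ppp1r3c level, total ChREBP-KO replicate 7 at 12.7, was also the array with the highest muscle score, 12.01. The next highest array, WT replicate 6 of the ChREBPβ line at 12.3, had a muscle score of only 7.54.

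The calls of Pygl, Gbe1, Ugp2, Ppp1r3b and Pygb in total ChREBP-KO fat were kept with the muscle score, the lymphocyte score or both in the model. With both scores the differences were -2.78 for Pygl, -2.06 for Gbe1, -1.19 for Ugp2, -0.98 for Ppp1r3b and 1.08 for Pygb. The adipocyte score (15.4 to 15.9 in WT, 16.1 to 16.3 in KO) did not overlap between these groups. Nor did the brown adipocyte score (11.8 to 14.1 in WT, 10.6 to 11.3 in KO). Neither was used as a covariate, so the part of these cells was not tested. The direction of these 5 differences was also kept within each of the 4 wash batches that the labels give. Each batch held only 1 or 2 KO and 1 or 2 WT arrays of this line. Over the 4 batches the difference was between -3.07 and -2.37 for Pygl, -2.12 and -1.63 for Gbe1, -1.20 and -0.78 for Ugp2, -1.27 and -0.87 for Ppp1r3b, and 0.91 and 1.26 for Pygb. Gys1 was higher in 3 of the 4 batches, and Ppp1r3c in 4 of 4.

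**Figure D3:**
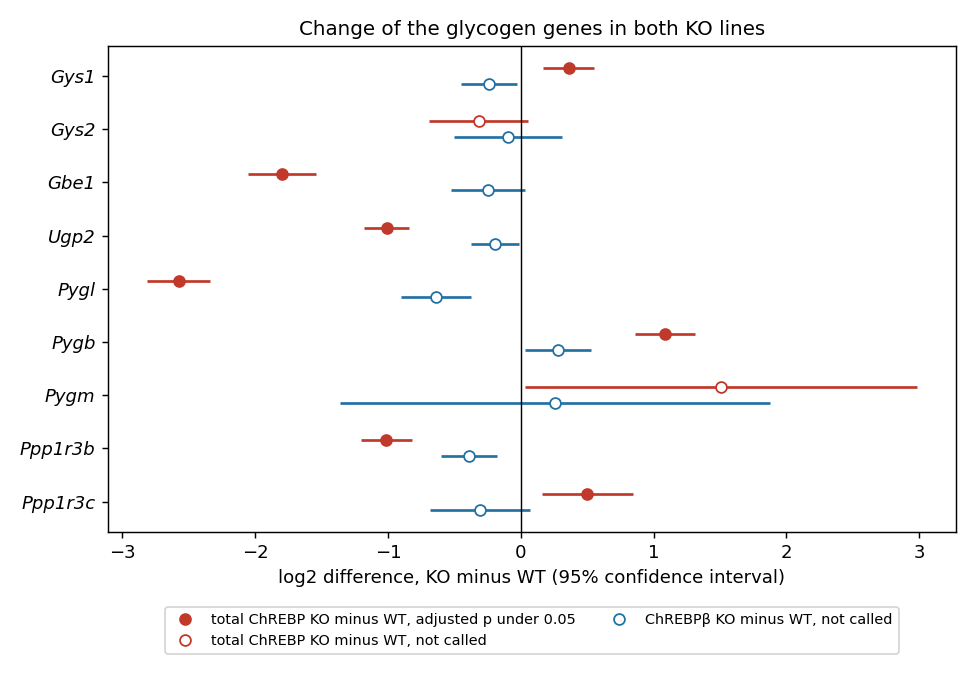
Log2 difference of KO minus WT (horizontal axis) for the 9 glycogen genes (rows), with 95% confidence intervals as lines, total ChREBP KO in red and ChREBPβ KO in blue. Filled points passed an adjusted p of 0.05: 7 of 9 did in total ChREBP KO and 0 of 9 in ChREBPβ KO, and the Pygm intervals are the widest.

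In ChREBPβ-deficient fat 0 of the 9 genes were called by limma, where 0.00787% of all gene names were called higher and 0.0433% lower. Before adjustment, 5 of 9 genes had a p under 0.05 (Pygl, Ppp1r3b, Gys1, Pygb and Ugp2), against 7.80% of all gene names. The median difference of the 9 genes was -0.24. Pygl came nearest to a call. Its ChREBPβ-deficient arrays read 15.5, 15.4, 15.3, 15.1 and 14.9, and the WT arrays of that line ranged from 15.5 to 16.3 with a median of 15.8. Each KO array was below each WT array, the only case among the 9 genes in this line, where 0.366% of all gene names had arrays that did not overlap. The difference was -0.64 ± 0.13 (SE), or 64.2% of the WT intensity (53.5 to 77.0%), with an adjusted p of 0.056.

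The call for Pygl depended on the setting. It passed with array weights (adjusted p = 0.011) and with a covariate for the lymphocyte score (0.046), over a range of 0.011 to 0.95 in all settings that kept every array. It also passed without WT replicate 7 of the ChREBPβ line (adjusted p = 0.020), WT replicate 4 of the total line (0.028), total ChREBP-KO replicate 7 (0.034) or ChREBPβ-deficient replicate 4 (0.047), over a range of 0.020 to 0.31 when arrays were left out one at a time. Within the 3 wash batches that held both groups the Pygl difference was between -0.85 and -0.42. Each of them held only 1 or 2 KO arrays and 1 or 3 WT arrays.

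Ppp1r3b read 14.4, 13.7, 14.3, 14.2 and 14.1 in the ChREBPβ-deficient arrays and between 14.2 and 14.8 in their WT. The groups overlapped, and the difference of -0.39 ± 0.10 (SE) had an adjusted p of 0.27. The Gbe1 difference was -0.25, with a 95% confidence interval of -0.52 to 0.03 and an adjusted p of 0.70. For Ugp2 it was -0.19 (-0.38 to -0.01, adjusted p = 0.60) and for Pygb 0.28 (0.03 to 0.53, adjusted p = 0.56). For the synthases it was -0.24 at Gys1 (adjusted p = 0.56) and -0.10 at Gys2 (adjusted p = 0.97). Ppp1r3c, at -0.31, had an adjusted p of 0.74, and Pygm, at 0.26, one of 0.98.

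Whether the KO effects differed between the lines was tested as an interaction term, the ChREBPβ difference minus the total difference. It was called for 7 of 9 genes. Of these 4 were higher, that is, the ChREBPβ difference lay above the total one, against 10.1% of all gene names: Pygl at 1.94, Gbe1 at 1.55, Ugp2 at 0.82 and Ppp1r3b at 0.63. The other 3 were lower, against 13.1%: Pygb at -0.81, Ppp1r3c at -0.81 and Gys1 at -0.60. Their adjusted p-values ranged from 2.4e-08 for Pygl to 0.020 for Ppp1r3c. With slide as a fixed block, which left few arrays to compare within each of the 15 slides, 1 of the 7 remained called, Pygl at 1.99 (adjusted p = 0.026). With slide as a random block the count was 7.

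The WT mice of both lines also differed. WT fat of the ChREBPβ line had more Pygb than WT fat of the total line, by 0.74 ± 0.11 (SE, adjusted p = 5.6e-06), with every array of the one group above every array of the other. Ppp1r3b was lower by 0.39 (adjusted p = 0.0013), Pygl by 0.29 (adjusted p = 0.048) and Ugp2 by 0.26 (adjusted p = 0.011), all with overlapping arrays. So 1 of 9 genes was called higher, against 26.2% of all gene names, and 3 of 9 lower, against 19.6%, and 1 of 9 did not overlap, against 17.0%. The remaining 5 genes were not called, with differences between -0.09 and 0.60. These groups differ in the lymphocyte score by more than 4 log2 units, and all 16 lymphocyte markers were called lower in WT fat of the ChREBPβ line. Other lists moved there too: 6 of 6 brown adipocyte markers were lower, and 4 of 5 macrophage and 6 of 10 adipocyte markers were higher. With the lymphocyte score as a covariate 1 of the 4 calls was kept, Ugp2 at -0.57 (adjusted p = 0.044). The differences of the other 3 were then -0.67 for Pygl (adjusted p = 0.098), 0.62 for Pygb (0.12) and -0.36 for Ppp1r3b (0.30). The Pygl call did not hold in 17 of the 26 fits with 1 array left out: WT replicates 1, 3, 4, 5 and 7 and KO replicates 1, 2, 4 and 8 of the total line, and WT replicates 1, 2, 3, 6 and 7 and KO replicates 2, 4 and 5 of the ChREBPβ line, with adjusted p-values from 0.0093 to 0.12 over all 26. The lymphocyte scores of these groups did not overlap, so lymphocyte score and line cannot be told apart here.

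Skeletal muscle content was read from marker RNA because Pygm and Gys1 are the muscle forms. The muscle score, the mean log2 intensity of 23 markers that do not include the 9 genes, ran from 6.50 to 12.01 over the 26 arrays without a gap wider than 0.74. It averaged 7.83 ± 1.84 (SD, n = 7) in WT fat of the total line, 9.75 ± 1.84 (n = 7) in total ChREBP-KO fat, 8.83 ± 1.54 (n = 7) in WT fat of the ChREBPβ line and 8.94 ± 1.69 (n = 5) in ChREBPβ-deficient fat. The summed intensity of the list ranged from 10519 to 141048, from 15243 to 626410, from 13423 to 175471 and from 19164 to 342133 in these groups. Defining markers such as Acta1, Myh1 and Mylpf were well above background on all 26 arrays, and Ckm and Actn3 on 18.

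Pygm followed this score closely. With group means removed, Pearson's r was 0.94 and Spearman's rho 0.94 over 26 arrays (two-sided permutation within groups, p = 1e-05 for both, the smallest that 100000 resamples can give, and 9e-05 after Benjamini-Hochberg adjustment over 9 relations). Without the 2 arrays farthest from the median score, total ChREBP-KO replicate 7 and ChREBPβ-deficient replicate 4, r was 0.97. Within single wash batches r was between 0.93 and 0.98. The second Pygm probe gave an r of 0.94. Among the 9 arrays of lowest muscle score Pygm stayed between 7.21 and 7.45, and r there was -0.25, while it was 0.94 among the other 17. With the muscle score as a covariate the Pygm difference in total ChREBP-KO fat was 0.02 (adjusted p = 0.96) in place of 1.51.

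For the other 8 genes the relation to the muscle score did not pass the permutation test. Pearson's r was highest for Ppp1r3c, 0.34 with a rho of 0.35 (adjusted permutation p = 0.45 and 0.46), and it was 0.09 without the 2 arrays. It was -0.26 for Gys1, -0.25 for Pygb, -0.11 for Ppp1r3b, -0.01 for Gys2, 0.02 for Gbe1, 0.03 for Pygl and 0.15 for Ugp2, with rho between -0.23 and 0.13 and adjusted p-values of 0.54 or more.

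**Figure D4:**
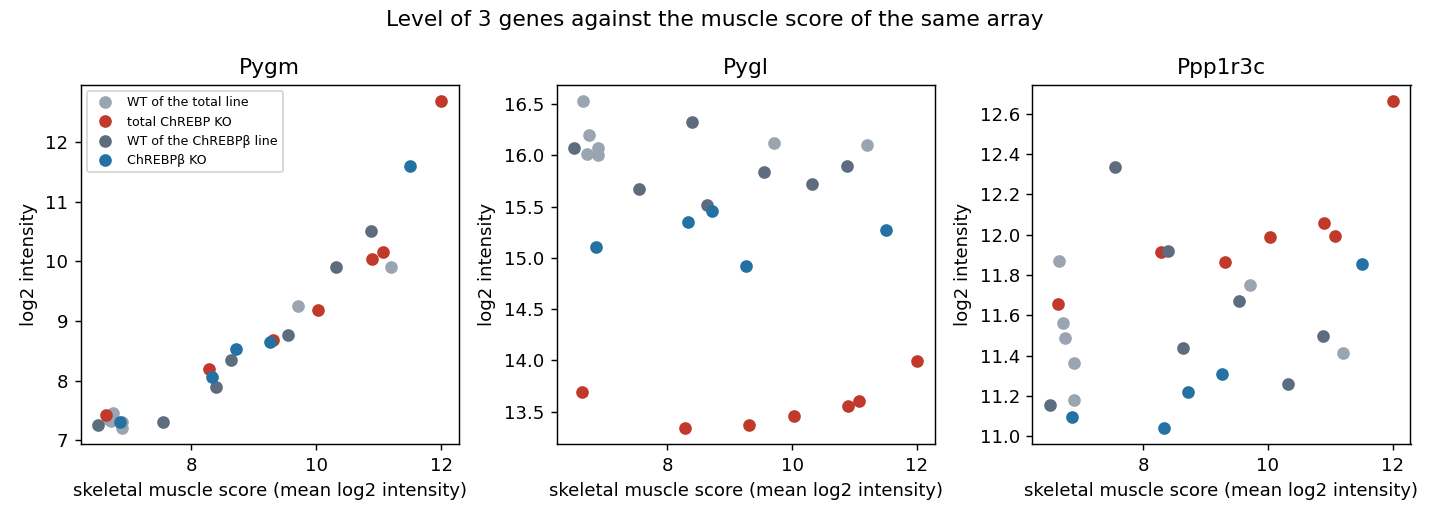
Log2 intensity of Pygm, Pygl and Ppp1r3c (vertical axes) against the skeletal muscle score of the same array (horizontal axes, mean log2 intensity of 23 markers), with each dot 1 array coloured by group. Pygm climbs with the score above about 8 in all 4 groups, while for Pygl the total ChREBP-KO arrays lie below all other arrays. The ChREBPβ-deficient Pygl arrays (highest 15.46) lie only just below their WT arrays (lowest 15.52).

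Gbe1, Ugp2 and Pygl, which fell in total ChREBP-KO fat, also varied together within groups. With group means removed, r over the 26 arrays was 0.90 for Gbe1 and Ugp2, 0.83 for Gbe1 and Pygl and 0.77 for Ugp2 and Pygl, given as descriptions of arrays that share their normalization. Gys2, which was not called, stood with them, at 0.78 with Ugp2, 0.74 with Gbe1 and 0.69 with Pygl. Ppp1r3b, which also fell, had a lower r, of 0.53 with Gbe1, 0.48 with Pygl and 0.45 with Ugp2. Gys1 had an r of 0.66 with Pygl and 0.63 with Gbe1 within groups, although Gys1 rose and both others fell in total ChREBP-KO fat. Pygb had an r of -0.04 with Pygl and of -0.38 with both Ppp1r3b and Pygm.

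Genes with the most similar pattern were sought among 17295 other genes by Pearson's r over the 26 arrays, with the group differences left in. For Pygl they were Tkt, a transketolase of the pentose phosphate pathway (0.99), Eno1b, an enolase gene (0.98), and Dixdc1 (0.98). For Gbe1 they were Tkt, Ank and Eno1b (0.98 each), and for Ugp2 they were Plin2, a lipid droplet coat protein, 4930519F09Rik (both 0.98) and Fam78b (0.97). For Pygb they were Adipoq, which encodes adiponectin (0.97), Emc9 and Mprip (0.95 each). For Pygm they were Atp2a1, the calcium pump of fast muscle, Hrc and Trim54 (0.99 each). Ppp1r3b was most like Fbxw4, Maff and Gm35986 (0.96 each) and Gys1 most like Sfxn1, Ppp1r1a and S100a1 (0.93 to 0.94). Gys2 and Ppp1r3c had looser matches, Syt5, Ppp2ca and Ergic1 for the former (0.87 to 0.90) and Abhd5, Mup11 and Itga10 for the latter (0.76 to 0.77).

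The wider pathway was read from 23 further genes, of which 22 were on the array and 20 were tested. In total ChREBP-KO fat 9 of the 20 were higher, against 25.8% of all gene names, and 3 were lower, against 20.1%, with a median difference of 0.21. In ChREBPβ-deficient fat 0 of the 20 were called by limma, and 2 had an unadjusted p under 0.05, against 7.80% of all gene names. The largest rise was that of Ppp1r3d, a further targeting subunit. It ranged from 11.2 to 11.8 with a median of 11.7 in WT and from 12.4 to 13.3 with a median of 12.9 in KO, without overlap (1.31, adjusted p = 8.0e-10). Of 5 tested subunits of phosphorylase kinase, which switches phosphorylase on, 4 were higher: Phka2 by 0.62 (adjusted p = 6.8e-07), Phkb by 0.54 (5.2e-05), Phkg1 by 0.50 (0.040) and Phka1 by 0.40 (0.046). The fifth, Phkg2, had a difference of 0.05 (adjusted p = 0.69). The relation of these subunits to the muscle score was not tested. Phka1 had a median of 10.29 in KO, with the highest array at 11.47 and the next at 10.62. For Phkg1 the median was 8.36, the highest array 9.51 and the next 8.50. KO and WT arrays overlapped for both genes. Phkg1 was also higher in WT fat of the ChREBPβ line than in WT fat of the total line, by 1.22 (adjusted p = 1.8e-05), without overlap. Also higher were the phosphoglucomutase listed as Pgm2 (0.58, adjusted p = 3.7e-06), the glycogen phosphatase laforin, Epm2a (0.50, 0.00083), and the targeting subunit Ppp1r3e (0.43, 0.00014). The other 4 called genes are named after their values were seen. Gsk3b, a kinase that acts on glycogen synthase, was higher (0.27, 0.0061). The 3 genes called lower were the primer protein glycogenin listed as Gyg (-0.30) and the catalytic subunits Ppp1cc (-0.25) and Ppp1cb (-0.20) of protein phosphatase 1. In the difference of both KO effects 5 of the 20 genes were called, each lower, against 13.1% of all gene names: Ppp1r3d at -1.03, Pgm2 at -0.59, Phkb at -0.53, Phka2 at -0.45 and Ppp1r3e at -0.34.

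**Figure D5:**
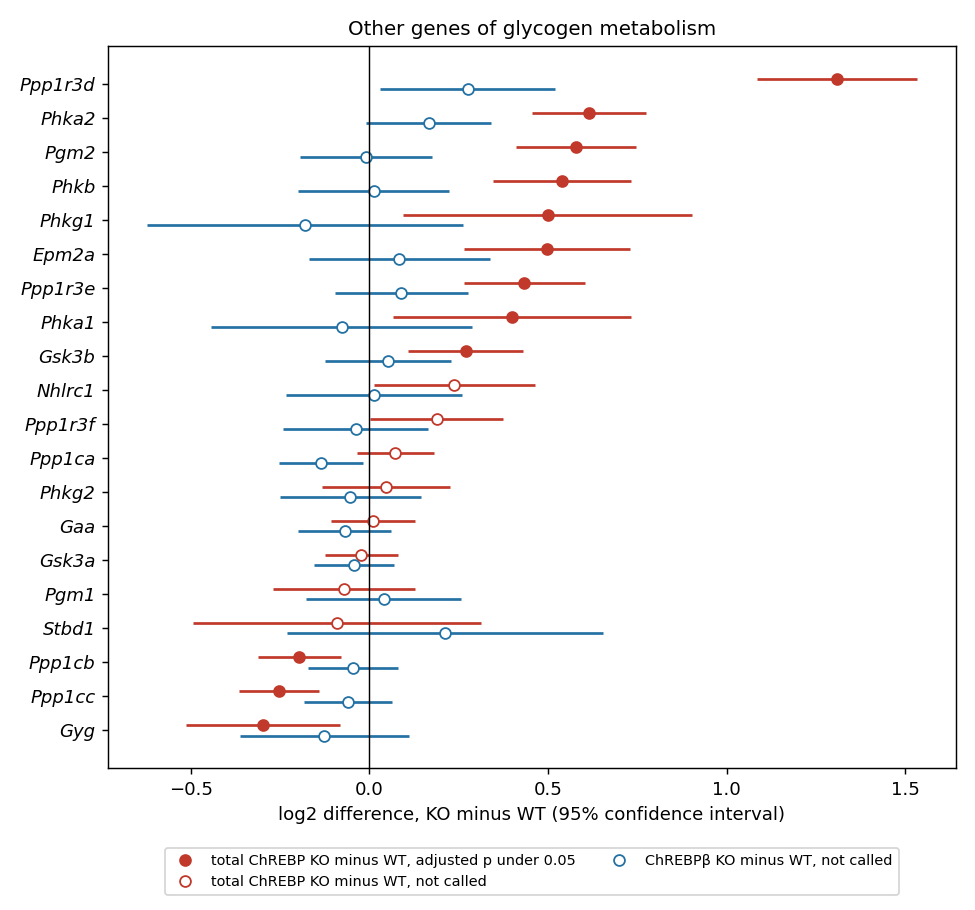
Log2 difference of KO minus WT (horizontal axis) with 95% confidence intervals for 20 other genes of glycogen metabolism (rows, in order of the total ChREBP-KO difference), total ChREBP KO in red and ChREBPβ KO in blue. Filled points passed an adjusted p of 0.05: 12 of 20 in red, from Ppp1r3d at 1.31 to Gyg at -0.30, and 0 of 20 in blue.

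Promoter sequence is shown for the gene that fell most, Pygl, and for the 1 gene of the set whose promoter held the palindrome CACGTG. This palindrome is a single motif and not a full carbohydrate response element. RefSeq windows of 300 bases, from 250 before to 50 after a start site in GRCm38.p6, were found for 7 of the 9 genes, 8 windows in all. The palindrome CACGTG, the same on both strands, was in 1 of these 8 windows, that of Ppp1r3c, against 7.15% of 32851 windows of all genes. A pair of looser motifs at the spacing of a carbohydrate response element, CANNTGNNNNNCANNTG, searched on both strands, was in 0 of the 8, against 0.767% of all. The windows of Pygl (chr12:70227634-70227933, minus strand) and Ppp1r3c (chr19:36736555-36736854, minus strand) read, with the palindrome in capitals:
Pygl: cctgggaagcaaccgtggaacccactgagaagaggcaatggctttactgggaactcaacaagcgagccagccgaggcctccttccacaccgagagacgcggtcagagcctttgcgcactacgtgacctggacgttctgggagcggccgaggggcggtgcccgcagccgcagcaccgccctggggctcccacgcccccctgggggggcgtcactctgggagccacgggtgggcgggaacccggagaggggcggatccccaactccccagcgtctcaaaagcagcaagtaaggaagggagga
Ppp1r3c: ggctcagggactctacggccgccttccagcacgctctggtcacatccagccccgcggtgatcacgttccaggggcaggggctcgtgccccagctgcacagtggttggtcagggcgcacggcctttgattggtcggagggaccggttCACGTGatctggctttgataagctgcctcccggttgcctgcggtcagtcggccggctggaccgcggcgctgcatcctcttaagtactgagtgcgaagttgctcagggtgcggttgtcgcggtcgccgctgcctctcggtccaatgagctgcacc
A match is a description of the letters only, and a window without one says nothing of binding elsewhere.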

How the data were processed

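RNA from single mice was hybridised to 1-colour Agilent SurePrint G3 mouse arrays, 1 array per mouse. The authors scanned them and extracted spots with Agilent Feature Extraction 10.10.1.1, and the deposited scanner files hold median spot intensity on a linear scale. The authors also deposited a log2 table, which the steps below gave back within 0.078 for every value when its own probes were used. That table was an alternative here.

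Spots called outliers were set to missing (97 values), the median of replicate spots was taken on the log2 scale, and probes were quantile normalized, without background subtraction. Probes were kept if found, significant and well above background on 21 of 26 arrays or 75% of a group, scaled from the methods. One limma 3.58.1 model (R 4.3.3) with 4 group means was fitted to 38832 probes, with 22 residual degrees of freedom. Mouse numbers in the labels were not used as pairs. The arrays numbered 26, which limits the precision of every mean.

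The step order changed some differences more than others. Spots normalized before replicate spots were resolved were an alternative chosen after seeing the data. With it, in total ChREBP-KO fat, Ppp1r3b differed by -0.90 in place of -1.01. Pygl then differed by -2.52 in place of -2.58, and Ugp2 stayed at -1.01. Dependence on brightness was not tested. Other alternatives were the scaling, background correction, dim-probe filters, outlier spots, blocks for mouse number, wash batch and slide, array weights, marker scores as covariates, and each array left out. The 9 genes, the marker lists and the glycogen list were chosen with earlier results of these data known. The genes named beyond them were, by rule, up to 8 called genes of the glycogen list by size of difference (1 gene of that list is not reported here), Mlxipl, and the 3 most similar genes of each member. The remaining called genes of the list, and Phkg2, were named after their values were seen. Gene names and mm9 positions were those of the array files, without exon annotation. Model scripts were tested on simulated data. Permutations used Python 3 with numpy, and promoters came from RefSeq.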

Additional observations from a re-analysis of the deposited data

Results flagged for a closer look

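Among 36 sets of 5 or 7 arrays tested for a value far from the rest, 2 stood out, where chance flags about 1 in 20. Pygl on WT replicate 4 of the total line read 16.5, and the next array 16.2. Ppp1r3c on total ChREBP-KO replicate 7 read 12.7, and the next array 12.1.

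For 7 genes the effects of both KO genotypes differed by the interaction term of the limma model (ChREBPβ effect minus total effect, log2). The differences were 1.94 for Pygl (adjusted p = 2.4e-08), 1.55 for Gbe1 (1.7e-06), 0.82 for Ugp2 (3.5e-05) and 0.63 for Ppp1r3b (0.0022), and -0.81 for Pygb (0.00096), -0.60 for Gys1 (0.0034) and -0.81 for Ppp1r3c (0.020). The lymphocyte score also differed between the lines, with 16 of 16 lymphocyte markers called higher in the same interaction, and with it as a covariate 5 of the 7 were kept. In that interaction 4 of 6 brown adipocyte markers were also called higher and 5 of 10 adipocyte markers lower. Of all gene names 10.1% were called higher in it and 13.1% lower. The part of these marker lists was not tested.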

How the results depend on the processing

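Of 639 recomputed differences of single genes under settings that kept every array, 604 stayed on the same side of the threshold, 32 lost a call, 3 gained one and 0 called values changed sign. With 1 array left out, 913 of 936 stayed, 17 lost a call and 6 gained one. In ChREBPβ-deficient fat the count of called genes went from 0 to 1, Pygl, with array weights and with the lymphocyte score, and ranged from 0 to 1 with 1 array left out. The count in the interaction went from 7 to 1 with slide as a fixed block. The count between WT lines went from 4 to 1 with slide as a fixed block, with the lymphocyte score and with both scores. The cause was not tested. In total ChREBP-KO fat the count stayed between 5 and 8. Gene by gene, the deposited log2 table differed from the values used here by at most 0.0065 in any member value. Mouse numbers are shared between KO and WT, and a replicate block gave 8 called genes in total ChREBP-KO fat (Gys2 added at -0.43, adjusted p = 0.031) and 0, 7 and 4 in the other comparisons. Whether the numbers pair the mice cannot be settled with so few pairs. Deviations of same-numbered arrays correlated between -0.35 and 0.51 in 6 pairs of the total line. In 4 pairs of the ChREBPβ line they correlated between -0.33 and 0.14. Of these arrays, 4 of 12 and 0 of 8 correlated best with their own number. The 13 tested probes were well above background on all 26 arrays. Pygm lay between 7.21 and 7.45 on the 9 arrays of lowest muscle score, so lower levels may not be resolved there.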
